A study of Tribolium castaneum with 16 samples.

Results

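Open chromatin of the larval brain was compared with that of the oldest embryos in a survey of the red flour beetle Tribolium castaneum, using 4 lists of narrow peaks from FAIRE-seq. FAIRE-seq fixes chromatin, shears it and keeps the DNA that phenol-chloroform extraction leaves free of nucleosomes, so that a peak marks a stretch of DNA with few nucleosomes. The compared samples were 2 titled larval CNS and 2 of embryos aged 48 to 72 h, out of 16 labelled samples. Peaks of the 4 lists that overlapped by at least 1 bp were merged into 41187 regions, against 52384 regions when all 14 FAIRE lists of the series were merged.

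The CNS samples were brains dissected from last-instar larvae of the enhancer-trap strain pu11 and fixed for 20 minutes. The embryo samples were whole embryos of the strain Georgia I, 48 to 72 h after egg laying and fixed for 30 minutes. The titles say CNS, while the tissue label says brain and the peak names of both lists say BRAIN, so the ventral nerve cord is not named for these samples. Tissue, stage, strain, fixation time and the length of the library barcode (6 nt in CNS, 5 nt in embryos) changed together and cannot be told apart. The labels do not say whether the 2 samples of a side came from separate collections, so that the spread between them may be technical.

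Nucleosome-poor stretches in animal genomes are mainly promoters, enhancers, insulators and other bound elements. Promoters of genes that most cells use tend to be open in many tissues, while enhancers tend to be open only in the tissues or at the stages in which they act. The brain of a last-instar larva holds neurons, glia and dividing neuroblasts. A late beetle embryo has formed its segments, limbs, muscles, gut, cuticle-secreting epidermis and its own nervous system, and a library of whole embryos averages over all of these. Fewer nuclei with an open region and a weaker opening in each nucleus cannot be told apart in such a library. No genome sequence or gene annotation of the lists' build was used here, so regions are given by linkage group (ChLG) and position and are not tied to genes, sequences or marker genes, and the tissue labels were not checked against markers.

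Larval CNS gave longer lists than 48 to 72 h embryos. CNS replicates 1 and 2 held 36080 and 34095 peaks, against 17288 and 10769 peaks in embryo replicates 1 and 2. Both CNS lists lay above both embryo lists, and the difference of means was 21059 peaks (exact two-sided permutation p = 0.333, the smallest that 2 against 2 lists allow). The CNS lists covered 10.6 and 10.2 Mb and the embryo lists 4.64 and 2.93 Mb, a difference of 6.63 Mb (exact two-sided permutation p = 0.333). With each list cut to its best 10769 peaks by −log10 p the difference in covered length was 1.30 Mb, in the same direction. The median peak width was 232 and 233 bp in the CNS lists and 199.5 and 198 bp in the embryo lists, a difference of 33.8 bp (exact two-sided permutation p = 0.333).

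Between the sides, depth differed in the same direction as list length, while within the embryo side the deeper list, replicate 2, was the shorter. The background depth of each library, recovered from fold and p and given in expected extended reads over a base, was 9.85 and 5.91 in CNS and 1.92 and 2.53 in embryos. When every peak was rescored at the depth of embryo replicate 1, 26442 and 31442 CNS peaks and 17288 and 10747 embryo peaks still passed the smallest −log10 p of that list. The part of the other differences between the libraries in the length of the lists was not tested.

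With the deposited lists, most regions called in both embryo lists were also called in both CNS lists, and most regions called in both CNS lists were called in neither embryo list. Of the 41187 regions, 15834 were called in both CNS lists and in neither embryo list (38.4%, termed CNS-only), 1107 in both embryo lists and in neither CNS list (2.69%, termed embryo-only), and 7575 in all 4 lists (18.4%, termed shared). The CNS-only class made up 54.4% of the 29109 regions called in both CNS lists. Of the 9199 regions called in both embryo lists, 82.3% were shared. A further 5220 regions were called in both CNS lists and in embryo replicate 1 alone, against 480 called in both CNS lists and in embryo replicate 2 alone. Without embryo replicate 2 the shared class numbered 12795 and the embryo-only class 2108 regions.

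**Figure D1:**
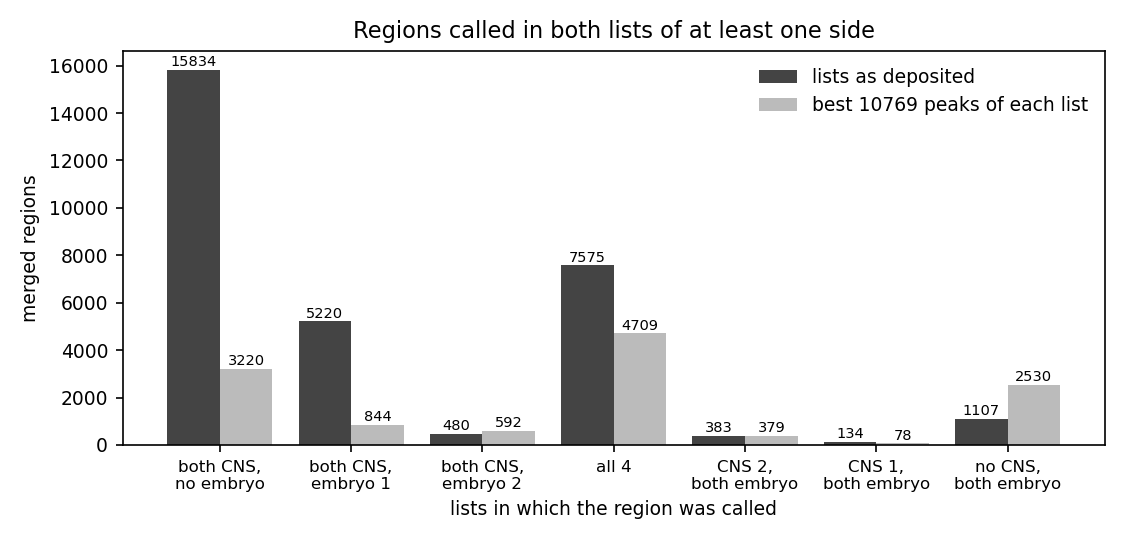
Number of merged regions (vertical axis) by the lists in which they were called (horizontal axis), for the lists as deposited and for the best 10769 peaks of each list; patterns called in only 1 list of each side or of a single side are not drawn. The CNS-only bar falls to 3220 and the embryo-only bar stands at 2530 when the lists have equal lengths.

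At equal list lengths the CNS-only class was smaller and the embryo-only class larger than with the deposited lists. The cut kept 29.8% and 31.6% of the CNS peaks and 62.3% and 100.0% of the embryo peaks. The last peak kept and the first left out had the same −log10 p to 3 digits in each shortened list, 31.4 in CNS replicate 1, 29.4 in CNS replicate 2 and 8.55 in embryo replicate 1. Of the 9365 regions called in both CNS lists, 34.4% were then called in neither embryo list and 50.3% in both, and of the 7696 called in both embryo lists, 32.9% were called in neither CNS list and 61.2% in both. The merged regions then numbered 17863, of which 3220 were CNS-only (18.0%), 2530 embryo-only (14.2%) and 4709 shared (26.4%). On linkage groups there were 3028 CNS-only and 1618 embryo-only regions, and on scaffolds 192 CNS-only and 912 embryo-only regions.

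The regions called embryo-only at equal lengths were mostly not free of CNS peaks. Of these 2530 regions, 1275 (50.4%) lay in a region with a weaker deposited peak in both CNS lists and 449 (17.7%) in a region with one in 1 CNS list, and 806 (31.9%) were embryo-only in the deposited lists as well. Of the 3220 CNS-only regions at equal lengths, 2582 (80.2%) were also CNS-only in the deposited lists, and 638 (19.8%) lay in a region with a deposited peak in 1 embryo list. The 2 classes that held under both treatments thus numbered 2582 CNS-only and 806 embryo-only regions. These numbers do not give a balance of the sides, since the cut was uneven. It kept 100.0% of the peaks of embryo replicate 2 and 62.3% of replicate 1, against 29.8% and 31.6% in CNS. Few embryo peaks were thus left to be regained in the deposited lists, and many CNS peaks were.

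The lists overlapped more within a side than between sides. As a Jaccard index over bases, which divides the bases that 2 lists share by the bases of their union, overlap was 0.707 for the CNS pair and 0.526 for the embryo pair. It lay between 0.165 and 0.319 for the 4 pairs of a CNS and an embryo list. The difference of means was 0.380 (exact one-sided permutation p = 0.333, the smallest that the 3 pairings of 4 lists allow). Unequal covered lengths hold the index below 1, and the CNS lists covered more bases than the embryo lists. At equal list lengths the index was 0.724 for the CNS pair, 0.595 for the embryo pair and between 0.228 and 0.291 across sides.

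The class of a peak went with its rank in the list. Folds of different lists are the authors' values against each list's own background and are compared here only as percentiles within a list, from 0 for the lowest fold to 100 for the highest. Each list was also divided by fold into 10 parts of about equal size, with part 10 the highest. In part 10 of the CNS lists, 59.7% and 70.0% of the peaks lay in shared regions and 22.8% and 13.3% in CNS-only regions. In part 10 of the embryo lists, 92.3% and 92.9% lay in shared regions and 5.38% and 4.64% in embryo-only regions. CNS-only peaks were most common in the middle of the CNS lists, at 55.9% in part 7 of replicate 1 and 60.8% in part 5 of replicate 2. Embryo-only peaks were most common in part 1 of the embryo lists, at 13.9% and 28.7%.

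**Figure D2:**
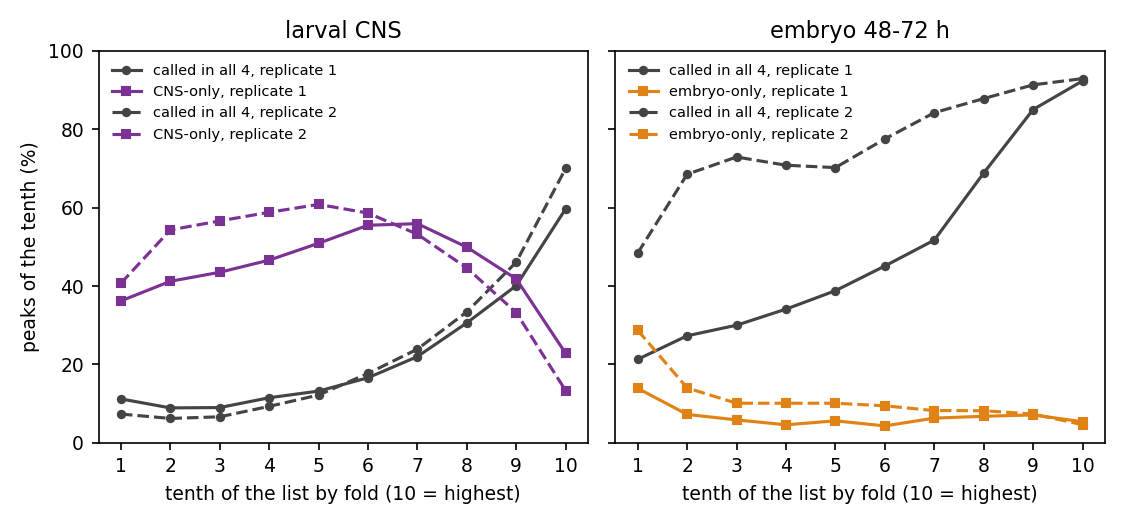
Percent of peaks (vertical axis) that lay in shared regions or in one-sided regions, by part of the list ranked by fold (horizontal axis, part 10 is the highest); CNS lists at left, embryo lists at right, solid lines for replicate 1 and dashed for replicate 2. The shared share is highest in part 10 of every list, at 59.7% and 70.0% in CNS and 92.3% and 92.9% in embryos.

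The classes also differed in width and position, which the calls do not fix directly. CNS-only regions had a median width of 232 bp (quartiles 188 and 319 bp), embryo-only regions 285 bp (216 and 429 bp) and shared regions 458 bp (320 and 646 bp). Shared regions merge peaks of 4 lists and one-sided regions those of 2, so their widths are not on one footing. Of the CNS-only regions 7.09% lay on unplaced scaffolds, against 44.0% of the embryo-only, 8.24% of the shared and 9.96% of all merged regions. The embryo-only class thus numbered 620 on linkage groups and 487 on scaffolds.

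The lists themselves differed in their share of scaffold peaks. It was 7.47% and 9.18% in CNS, against 13.2% and 15.9% in 48 to 72 h embryos, and between 10.9% and 20.7% in the other 10 lists. Long peaks followed the same division. Peaks over 2 kb numbered 4 and 3 in the CNS lists, against 71 and 66 in the embryo lists, of which 67 and 65 lay on scaffolds. On 1 scaffold each embryo list had a single peak of 13020 bp, with folds of 6.90 and 5.30, while CNS replicate 1 had no peak there and CNS replicate 2 had 14 small ones covering 2296 bp in all. The 10 other lists covered between 12942 and 13020 bp of it. Repeated sequence and copy number were not analysed here, so scaffold calls are given as calls only.

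Linkage groups differed in their balance of the classes. CNS-only regions made up between 33.4% of the regions on ChLG6 and 43.1% of those on ChLG4, and 27.4% of those on scaffolds. Embryo-only regions made up between 1.03% on ChLG7 and 3.56% on ChLG10, and 11.9% on scaffolds. Among linkage groups, ChLG10 and ChLG6 had the highest embryo-only shares, 3.56% and 3.40%, while at equal list lengths ChLG10 and ChLG8 did, at 14.3% and 13.4%, with ChLG6 at 12.6%. ChLG6, ChLG8 and ChLG10 had the lowest CNS-only shares, 33.4%, 35.4% and 35.6%. At equal list lengths the CNS-only share was again lowest on ChLG6, ChLG8 and ChLG10, at 14.5%, 15.1% and 15.3%, and highest on ChLG4 at 23.6%. Scaffolds held 912 of the 2530 embryo-only regions at equal lengths, 40.7% of the scaffold regions of that merge.

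Distances between regions differed between the classes and with list length. On linkage groups, with the deposited lists, 74.2% of the CNS-only regions were within 5 kb of another CNS-only region, with a median distance of 2.38 kb, and 43.0% were within 5 kb of a shared region. Embryo-only regions were sparser, with 44.8% within 5 kb of another embryo-only region at a median distance of 14.1 kb, but 35.6% had another within 1 kb, against 31.3% of the far more numerous CNS-only regions. Of all merged regions on linkage groups, 56.0% had another of any class within 1 kb and 93.7% within 5 kb. At equal list lengths the values were lower, with 31.7% of CNS-only regions within 5 kb of another at a median distance of 10.3 kb, 227 of 3028 CNS-only and 208 of 1618 embryo-only regions (12.9% of the embryo-only) within 1 kb of another of their class, and 29.0% of all regions within 1 kb of any other.

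The densest stretches were found in windows of 100 kb, chosen after their values were seen. The medians over the 1523 windows with a region were 23 regions of any kind, 9 CNS-only, 0 embryo-only and 4 shared. The window with the most CNS-only regions, ChLG4 from 2700001 to 2800000, held 66 regions. Of these 41 were CNS-only, none embryo-only and 4 shared, and at equal list lengths the classes held 15, 1 and 1. Of the 5 windows with the most CNS-only regions, 4 lay on ChLG4, between 2700001 and 6100000. All 5 were dense in regions of any kind, with 62 to 74 each, against a 90th percentile of 46 over windows. CNS-only regions made up 43.1% of all regions on ChLG4. The second of the 5, ChLG4 from 5000001 to 5100000, held 69 regions in the deposited lists, 37 of them CNS-only and 2 embryo-only. At equal list lengths it held 4 CNS-only and 9 embryo-only regions. The window with the most embryo-only regions, ChLG1 from 2200001 to 2300000, held 48 regions. Of these 6 were CNS-only, 16 embryo-only and 5 shared, and at equal list lengths the classes held 0, 8 and 4. The window with the most shared regions, ChLG7 from 16400001 to 16500000, held 57 regions. Of these 10 were CNS-only, 1 embryo-only and 33 shared, and at equal list lengths the window held 31 shared regions.

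The 5 strongest CNS-only regions on linkage groups were 287 to 465 bp wide, against a median of 232 bp for the class. The region with the largest smaller fold spanned 465 bp on ChLG2 from 15605013 to 15605477, with folds of 17.1 and 24.8 in the CNS lists, at percentiles 99.7 and 99.6. Next came ChLG2 from 13833547 to 13833914 (folds 16.4 and 20.3), ChLG4 from 12128162 to 12128448 (16.3 and 21.4), ChLG2 from 12953151 to 12953495 (15.9 and 16.5) and ChLG6 from 10536567 to 10536892 (15.9 and 20.3). All 5 lay between percentiles 97.1 and 99.7 in both CNS lists and, by their class, had no peak in the deposited lists of 48 to 72 h embryos.

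The other lists divided these 5 regions. The one on ChLG4 from 12128162 had no peak in any of the 10 other lists. The one on ChLG2 from 13833547 was called in all 4 lists of younger embryos, with folds of 25.2 and 29.2 at 0 to 24 h and 10.9 and 12.7 at 24 to 48 h, and in no epidermis list. The one on ChLG6 was called in all 4 younger embryo lists too, and in 3 of the 6 epidermis lists with folds from 3.30 to 4.31. The one on ChLG2 from 15605013 was called in 3 younger embryo lists, and the one on ChLG2 from 12953151 in 1.

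The strongest embryo-only regions on linkage groups stood between percentiles 93.1 and 97.8 of their lists. ChLG2 from 4988280 to 4988549 had folds of 15.4 and 12.3 in the embryo lists, at percentiles 97.8 and 96.8. ChLG1 from 10595214 to 10595492 had 14.4 and 12.1, ChLG9 from 19827627 to 19827940 had 12.1 and 11.1, and ChLG4 from 12695975 to 12696196 had 14.1 and 10.8. The fifth, ChLG8 from 7000360 to 7002020, was 1661 bp wide, with folds of 12.5 and 9.90. All 5 were called in both lists of 0 to 24 h and both of 24 to 48 h embryos, and in 3 to 6 of the 6 epidermis lists. None of them was called in 48 to 72 h embryos alone. By their class they had no peak in the deposited CNS lists, while every other group of the series had a call at each.

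The 10 lists outside the comparison give readouts of the classes that the calls did not use. The younger embryos were Georgia I whole embryos fixed for 30 minutes like the older ones. The epidermis came from last-instar larvae of pu11, like the CNS, but was fixed for 30 minutes, and was dissected as lateral epidermis together with the elytron discs in the second thoracic segment (T2) or the hindwing discs in the third (T3). CNS-only regions were called in 58.0% and 67.4% by the 0 to 24 h embryo lists, in 16.3% and 26.6% by the 24 to 48 h lists, in 12.7%, 34.0% and 35.0% by the T2 lists and in 44.5%, 36.5% and 38.2% by the T3 lists. Embryo-only regions were called in 45.3% and 32.7% by the 0 to 24 h lists, in 90.7% and 66.6% by the 24 to 48 h lists, in 56.8%, 82.2% and 85.7% by T2 and in 57.5%, 84.4% and 88.9% by T3. All merged regions, as the background, were called in 65.2% and 69.6%, in 39.0% and 45.8%, in 20.1%, 38.8% and 39.4%, and in 45.2%, 40.7% and 41.8% by the same lists.

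With the deposited lists, embryo-only regions were called above the background share in the 24 to 48 h embryos and all epidermis lists, and below it in both 0 to 24 h lists. At equal lengths of the compared lists they were called in 84.3% and 78.5% by the 0 to 24 h lists, against 82.3% and 84.3% of all regions of that merge, so the low share at 0 to 24 h did not hold there. The means at equal lengths were 81.4% at 0 to 24 h, 91.4% at 24 to 48 h, 63.2% in T2 and 68.8% in T3. For all regions of that merge they were 83.3%, 70.8%, 52.2% and 62.0%, so the excess in epidermis was smaller than with the deposited lists. With the deposited lists, CNS-only regions were below the background share in all 10 lists, and farthest below it in both 24 to 48 h lists. The share of CNS-only regions minus that of embryo-only regions was positive in both 0 to 24 h lists (12.7 and 34.7 percentage points) and negative in both 24 to 48 h lists (mean −57.2) and in all 6 epidermis lists, with means of −47.7 in T2 and −37.2 in T3 and T3 replicate 1 nearest to 0. The mean over the 4 younger embryo lists minus that over the 6 epidermis lists was 25.7 points (exact two-sided permutation p = 0.243, n = 4 and 6), and −14.2 at equal lengths of the 4 compared lists (exact two-sided permutation p = 0.281). All other splits of the 10 lists break up replicate groups, so these p-values treat replicates of a group as separate units. With the deposited lists this contrast was 16.0 without CNS replicate 2, 40.8 without embryo replicate 1 and 16.4 without embryo replicate 2, so it moved with single lists. It was 9.37 in the best 50% of each list and 6.29 with windows of fixed width on the summits. The mean of the 0 to 24 h lists lay above both epidermis means and that of the 24 to 48 h lists below both.

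**Figure D3:**
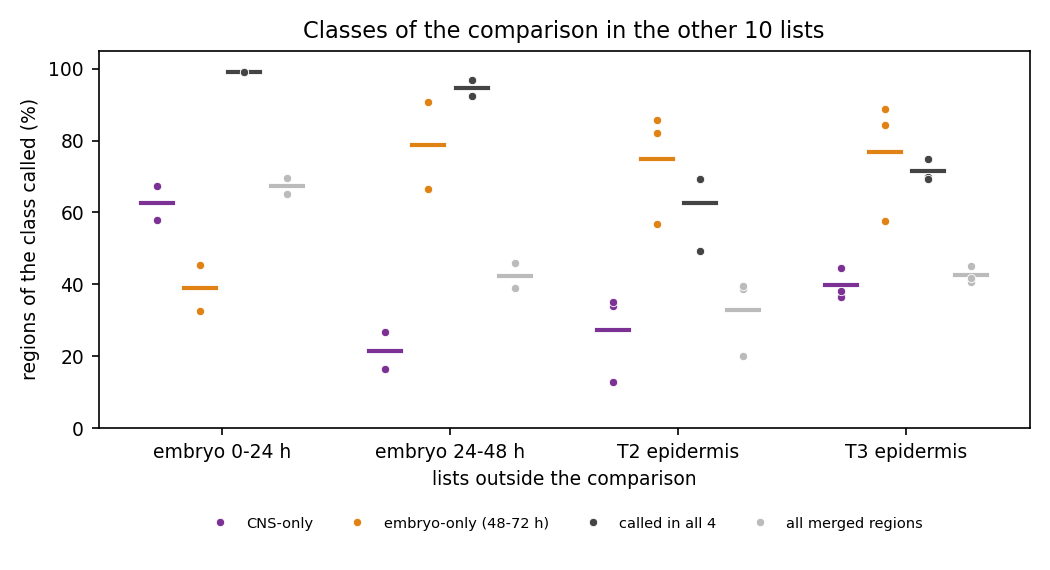
Percent of the regions of each class called (vertical axis) in the lists outside the comparison (horizontal axis), with a point for each list and a line for the group mean. Embryo-only regions are called in 66.6% and 90.7% by the 24 to 48 h lists and CNS-only regions in 16.3% and 26.6%.

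The shares called moved with the length of the other lists. The 0 to 24 h lists were the longest of the 10. With each of the other lists cut to its best 9725 peaks, the 0 to 24 h lists called 11.5% ± 1.87 of the CNS-only regions (SD, n = 2), the 24 to 48 h lists 5.84% ± 0.706 (SD, n = 2), and those of epidermis 14.2% ± 1.35 for T2 and 15.9% ± 2.01 for T3 (SD, 3 lists each). Embryo-only regions were then called in 13.3% ± 7.98, 51.6% ± 20.4, 57.7% ± 4.76 and 50.4% ± 23.6, and all merged regions in 23.5% ± 0.168, 22.7% ± 0.0155, 21.1% ± 0.877 and 21.8% ± 0.473, in the same order of groups and with the same n. The CNS-only share then lay below the background share in all 4 groups, and the embryo-only share above it in all but the 0 to 24 h embryos.

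The classes also differed in the younger embryo lists that called them. Of the CNS-only regions, 4201 (26.5%) were called in both 0 to 24 h lists and in neither 24 to 48 h list, and 4 (0.0253%) the other way round. Of the embryo-only regions, 3 (0.271%) were called in both 0 to 24 h lists and in neither 24 to 48 h list, and 240 (21.7%) the other way round. The 0 to 24 h lists, with 31485 and 33884 peaks, were longer than the 24 to 48 h lists, with 18034 and 21309, and the shared class had 120 (1.58%) and 9 (0.119%). All merged regions leaned the same way as the CNS-only and shared classes, with 6738 (16.4%) and 361 (0.876%). Of the 3 classes, the embryo-only one alone had more regions of the second pattern.

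With the deposited lists, the share called in no other list was near the background for CNS-only regions and far below it for embryo-only regions. Of the CNS-only regions 2468 (15.6%) were called in no other list of the series, close to the 15.4% of all merged regions, and 7558 (47.7%) in no epidermis list, close to 46.1% of all merged regions. Of the embryo-only regions 8 (0.723%) were called in no other list and 95 (8.58%) in no epidermis list, while 515 (46.5%) were called in all 6 epidermis lists, against 18.8% of all merged regions. Of the CNS-only regions, 1873 (11.8%) were called in all 6. Restricted to linkage groups, embryo-only regions were called in 28.7% ± 9.12 at 0 to 24 h, 73.3% ± 20.0 at 24 to 48 h (SD, n = 2 each), and for epidermis 69.5% ± 21.3 by T2 and 72.9% ± 21.5 by T3 (SD, 3 lists each), in the same order as over all sequences. The means for all merged regions on linkage groups were 67.3%, 41.2%, 31.2% and 41.2%, in the order 0 to 24 h, 24 to 48 h, T2 and T3. In epidermis T2 replicate 1 and T3 replicate 1 were the lists with the lowest embryo-only shares.

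Shared regions were called more often in younger embryos than in epidermis, and in both more often than all merged regions. The 0 to 24 h lists each called 99.0% of the 7575 shared regions, the 24 to 48 h lists 92.5% and 96.9%, the T2 lists 49.3%, 69.2% and 69.4% and the T3 lists 74.9%, 69.9% and 69.4%. All 10 other lists called 3425 of them (45.2%), against 11.8% of all merged regions. No epidermis list called 1546 of them (20.4%), against 46.1% of all merged regions.

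At shared regions, CNS peaks were wider than embryo peaks. The median number of bases called per shared region was 421 and 420 bp in the CNS lists, against 252 and 204 bp in the embryo lists, a difference of 192 bp (exact two-sided permutation p = 0.333, the smallest possible). Both CNS widths exceeded both embryo widths in 6712 shared regions (88.6%), and the reverse held in 149 (1.97%). The median ratio of mean CNS width to mean embryo width was 1.61. At equal list lengths the widths were 441 and 425 bp in CNS and 248 and 220 bp in embryos.

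Width at these regions differed among the other lists as well. The 0 to 24 h embryo lists, at background depths of 3.71 and 4.72, had medians of 359 and 379 bp, and the 24 to 48 h lists, at 1.89 and 2.08, had 263 and 293 bp. The 3 T3 lists, at 4.16, 4.21 and 5.77, had 293, 284 and 282 bp over the shared regions that they called. The part of depth in the difference between CNS and 48 to 72 h embryos was not tested, since no embryo list of that age reached the depth of a CNS list.

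**Figure D4:**
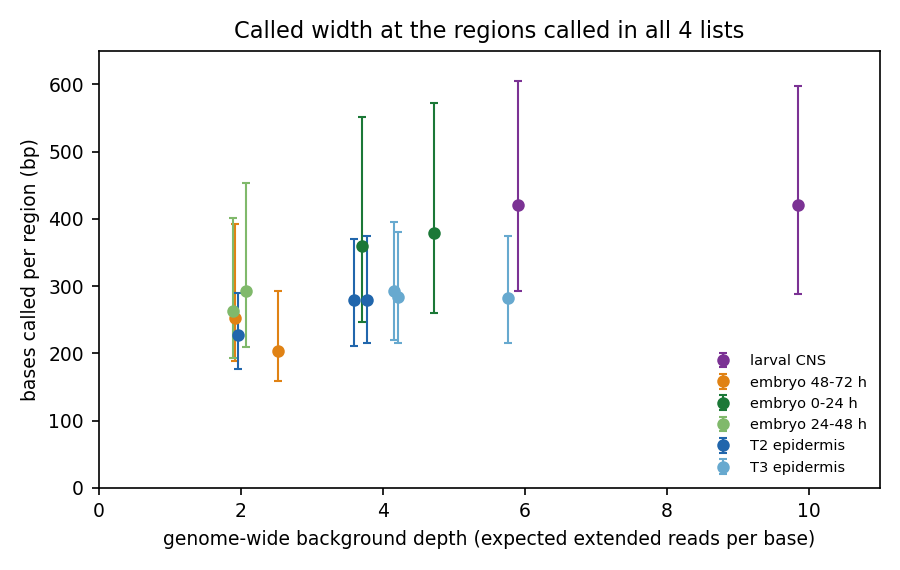
Bases called per region (vertical axis, bp; points are medians and bars quartiles over the shared regions that the list called) against the recovered background depth (horizontal axis, expected extended reads per base), for all 14 lists coloured by group. Both CNS medians, 421 and 420 bp, lie above the other 12.

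Summits of the 2 sides lay within 50 bp of each other at most shared regions. The strongest summits of a CNS and an embryo list were a median of 19 to 21 bp apart over the 4 pairs, and 73.2% to 75.4% of them were within 50 bp. The embryo pair had a median distance of 18 bp with 77.8% within 50 bp, and the CNS pair 11 bp with 86.2%. Distances between sides thus differed little from those between the 2 embryo lists. The embryo lists split shared regions into 2 or more peaks more often, in 11.6% and 7.97% of the regions, against 5.56% and 4.37% in the CNS lists.

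The order of shared regions by fold was alike within a side and less alike between sides. Spearman's rho across the 7575 regions was 0.956 for the CNS pair, 0.791 for the embryo pair and between 0.427 and 0.505 for the 4 pairs across sides. These are descriptions across regions, which share library, depth and background within a list, and regions are not replicates. The mean of same-side pairs minus that of cross-side pairs was 0.405, and 0.613 at equal list lengths.

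Which side ranked shared regions higher depended on the scale. With percentiles over whole lists, both CNS percentiles exceeded both embryo percentiles in 3841 shared regions (50.7%) and the reverse held in 1590 (21.0%). At equal list lengths the counts were 1508 (32.0%) and 2190 (46.5%) of 4709. With percentiles taken among the shared regions alone, a setting added after the values were seen, they were 2804 (37.0%) and 2776 (36.6%). Such percentiles are spread alike in every list, so near-equal counts were largely built into that setting. The balance thus turned round between whole lists and equal list lengths. The share of shared regions whose order differed without overlap between the sides was 71.7%, 78.5% and 73.7% in the 3 settings.

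**Figure D5:**
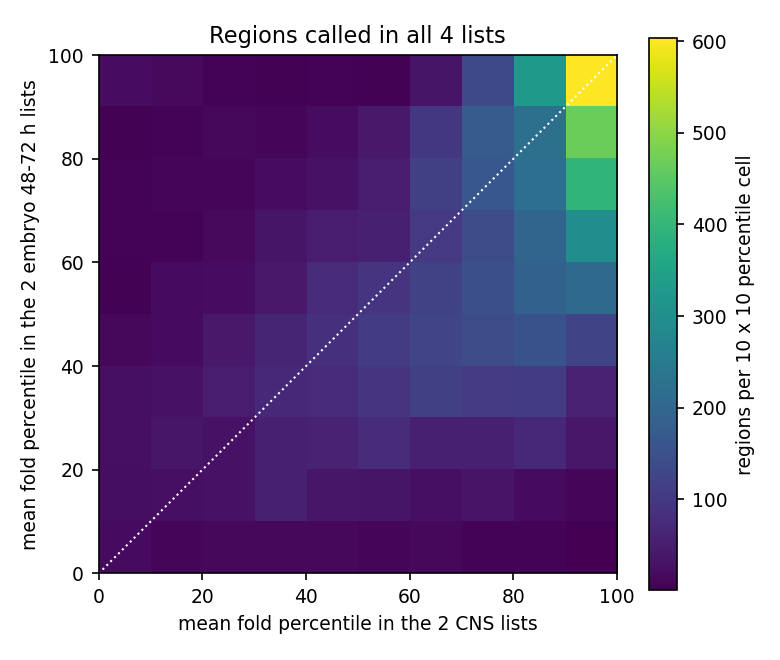
Number of shared regions (colour) by mean fold percentile in the 2 CNS lists (horizontal axis) and in the 2 embryo lists (vertical axis), each in percentiles of the whole list; the dotted line marks equal percentiles. The fullest cell, with 603 regions, is the top right one, and more regions lie below the line than above it; counted without overlap between the sides, the balance turns round at equal list lengths, with 1508 higher in CNS and 2190 higher in embryos.

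The shared regions highest in all 4 lists were called nearly everywhere. ChLG1 from 4079714 to 4080803 had folds of 17.2 and 27.7 in CNS and 32.6 and 24.7 in embryos, at percentiles from 99.7 to 100.0. ChLG1 from 8503071 to 8503763 had 17.0 and 24.7 in CNS and 26.1 and 20.1 in embryos, and ChLG1 from 3874732 to 3875774 had 16.6 and 25.7 in CNS and 27.0 and 23.2 in embryos. ChLG5 from 10933600 to 10933965 had 16.7 and 26.3 in CNS and 32.6 and 21.3 in embryos. These 4 were called in all 10 other lists. The fifth, ChLG2 from 9783159 to 9783543, had 16.7 and 25.6 in CNS and 22.0 and 21.5 in embryos, and in epidermis it had folds of only 3.84 to 5.42 in 4 of the 6 lists.

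Other shared regions ranked high on one side and low on the other. ChLG8 from 10278368 to 10278771 stood at percentiles 95.4 and 94.8 in CNS, against 27.6 and 26.8 in embryos. ChLG7 from 18795106 to 18795669 stood at 90.8 and 89.2 in CNS, against 25.4 and 7.98 in embryos. ChLG9 from 14417678 to 14418176 stood at 94.8 and 95.4 in CNS, against 36.3 and 5.74 in embryos. The other 2 of the 5 regions with the largest gaps, ChLG9 from 5789405 to 5790010 and ChLG3 from 3876457 to 3877021, stood between 80.2 and 82.6 in CNS, against between 2.89 and 21.9 in embryos. Both 0 to 24 h lists called all 5, with folds from 5.31 to 15.5.

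In the opposite direction, ChLG8 from 1970768 to 1972605 stood at percentiles 32.5 and 21.4 in CNS, against 98.1 and 98.1 in embryos. It was also the region with the largest excess of embryo width, with 750 and 944 bp called in CNS, against 1838 and 1793 bp in embryos. ChLG10 from 8201287 to 8201652 stood at 50.6 and 52.3 in CNS, against 94.5 and 93.1 in embryos, and ChLG3 from 13885459 to 13885727 at 43.8 and 56.1 in CNS, against 95.5 and 93.9 in embryos. ChLG4 from 4049369 to 4049649 and ChLG8 from 14411881 to 14412201 stood between 11.4 and 44.5 in CNS, against between 73.6 and 87.3 in embryos. All 5 were called in all 10 other lists.

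The largest differences in width lay around a narrow embryo peak. At ChLG8 from 13590999 to 13591935 the CNS lists called 932 and 929 bp, against 145 and 132 bp in the embryo lists. At ChLG3 from 31044706 to 31045801 they called 1011 and 1058 bp, against 156 and 159 bp, and at ChLG8 from 15671194 to 15672278 they called 1085 and 997 bp, against 151 and 172 bp. The first of these had no call in epidermis, and the other 2 were called in all 6 epidermis lists. Apart from the region on ChLG8 from 1970768 given above, the regions with the largest excess of embryo width were ChLG4 from 3176553 to 3176962 with 212 and 234 bp in CNS, against 394 and 392 bp in embryos, and ChLG8 from 12181060 to 12181531 with 215 and 347 bp in CNS, against 349 and 414 bp in embryos.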

How the data were processed

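FAIRE-seq libraries of 16 labelled samples comprised 14 with a peak list and 2 genomic inputs, which were not analysed here. The submitters' processing notes name Trimmomatic 0.32, Bowtie2 2.2.3, SAMtools 0.1.12a, deepTools 2.5.2 and MACS2 2.1.1.20160309. Genome build, control library and parameters were not given in the sources used here. Each deposited list was called on 1 sample, per the peak names, and holds the authors' fold ratio over background, −log10 p and −log10 q of each peak; the smallest −log10 q of 1.30 to 1.36 corresponds to a q of 0.05. The deposited score column was not used.

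Peaks were merged at 1 bp overlap with Python 3.11.15, numpy 2.4.6 and pandas 2.3.3, and classed by the lists that called them. Pileup and background of each summit were solved from fold = (pileup + 1) / (background + 1) and the Poisson tail (SciPy 1.17.1). All but 7 recovered pileups of the 14 lists were whole within 0.02, and none exceeded 250, which limits the top folds of deep lists. A pileup of 250 was reached by 4 and 2 peaks in the CNS lists and by 105 and 98 in the 48 to 72 h embryo lists. The smallest background gave the depth of a list, and peaks were rescored at equal depth without changing their extent. Total reads are unknown. The code was tested on simulated lists.

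Lists were placed by title. Tests were exact permutations over lists. Named regions lie on linkage groups and hold their class at equal lengths: the 5 with the largest smallest fold per one-sided class, and among shared regions the 5 with the largest smallest percentile, the 5 with the largest gap of percentiles and the 3 with the largest width ratio in each direction. Motif and gene-list counts needed a genome and were not run. Classes, comparisons and lists were chosen with earlier results of these data known.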

Additional observations from a re-analysis of the deposited data

Results flagged for a closer look

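The difference between the share of CNS-only and the share of embryo-only regions called pointed one way in every list of one group and the other way in every list of another. It was 12.7 and 34.7 percentage points in the 0 to 24 h embryo lists, against a mean of −57.2 in the 24 to 48 h lists, both of them below 0, a gap of means of 80.9 points. Against the T2 lists (−44.2, −48.2 and −50.8) the gap was 71.4 points, and against the T3 lists (mean −37.2, all 3 below 0) it was 60.9 points. These 3 differences between groups were not tested. The opposite directions did not hold throughout. The value of 0 to 24 h replicate 1 was below 0, between −14.8 and −2.88, at equal lengths of the compared lists, in the best 50% of each list, with windows on the summits, with the other lists cut to one length and without CNS replicate 2. Without embryo replicate 2 the value of T3 replicate 1 was 6.80, above 0. No compared group had enough lists for a check of single outlying lists.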

How the results depend on the processing

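Differences in number of peaks, covered length, peak width, width at shared regions and overlap kept their direction in every alternative run, and the permutation of 2 against 2 lists could not pass 0.05 in any. At equal list lengths there were 3220 CNS-only, 2530 embryo-only and 4709 shared regions, the likeness of ranks was 0.613, 1508 shared regions ranked higher in CNS, and the contrast of class shares in the other lists was −14.2 points (exact permutation p = 0.281), reversed from 25.7; the cause was not tested. That contrast was 16.0 to 40.8 when 1 list was left out. In the best 50% of each list there were 8696 CNS-only and 3750 shared regions, a likeness of 0.528 and 1555 regions ranked higher in CNS. On linkage groups 620 regions were embryo-only. Requiring 50% of a region covered left 3802 shared. At equal depth there were 11901 CNS-only, 1333 embryo-only and 7084 shared regions, and the likeness was 0.446. With −log10 p as the ranked value it was 0.365 and 671 regions ranked higher in embryos, and among shared regions alone 2776 did. Leaving out 1 list gave 1242 to 2108 embryo-only and 7737 to 12795 shared regions, a likeness of 0.311 to 0.462, 4035 to 7466 regions ranked higher in CNS and 1822 to 3855 in embryos, with the highest counts without embryo replicate 2. Fixed windows on summits give no peak width. With the replicate number as a replicate block the difference in peaks was 21059 (exact permutation p = 0.5). The deviations of same-numbered lists at shared regions correlated at −0.0707. That value cannot show whether same-numbered lists shared a batch, which the labels do not say. With 2 lists a side, no count here has a usable error. Regions uncalled in the shallower embryo lists were not detected at that depth, and whether they were closed in these embryos was not tested.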
